A study of Mus musculus with 6 samples.

Results

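The FoxO genes encode the forkhead box O transcription factors, and the mouse has 4 of them, Foxo1, Foxo3, Foxo4 and Foxo6. They were taken by symbol from the deposited table, where each has 1 row among 52550 mouse genes, and all 4 passed the filter on low counts. FoxO proteins bind DNA through a forkhead domain and are held in check by insulin and IGF-1, whose signal runs through PI3K to the kinase Akt. Akt phosphorylates FoxO proteins, 14-3-3 proteins then bind them, and they leave the nucleus. In skeletal muscle, FoxO proteins that remain in the nucleus are known to switch on ubiquitin ligases and autophagy genes during wasting and to favor the use of fat over glucose during fasting. The data measured transcripts, and not the amount, phosphorylation or location of the proteins.

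RNA from muscle of 3 FLExDUX4 mice and 3 WT mice, all male and aged 13 weeks by the labels, was sequenced by QuantSeq. This method reads the 3′ end of polyadenylated transcripts. The paper describes the WT mice as littermates. FLExDUX4 mice were hemizygous for a human DUX4 transgene placed at Rosa26 in inverted orientation between lox sites. No Cre was present, so any DUX4 came from leaky expression in whatever cells allowed it, and the transgene itself was not measured in the table used here. WT mice lacked the transgene, and no treatment is named for either group. The muscle was quadriceps by the labels, whereas the written methods name the triceps and a younger age.

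The counts used were 1 total per genotype over its 3 mice, 13110125 counts on genes for FLExDUX4 and 18367364 for WT. The totals were scaled by TMM, a factor that sets the bulk of genes equal between genotypes, and are given as counts per 1000000 (CPM). Each log2 ratio is FLExDUX4 over WT and carries a 95% interval that covers counting error only. Further columns headed as replicates carry no sample label and were not used, so the spread between mice is not in these intervals, no p-value was computed, and a single mouse could decide a ratio. Scaling by the added ERCC and SIRV spike-in RNAs in place of TMM shifted every log2 ratio by -0.28, so a positive ratio smaller than this shift changes sign under that scaling. Defining markers of muscle fibers were abundant, with 10 genes that summed to 109252 CPM in FLExDUX4 and 109336 CPM in WT. Of 6 genes listed for limb position, 5 had few counts or none. The hindlimb genes Tbx4, Pitx1 and Hoxc10 had 10 and 10, 0 and 1, and 0 and 0 counts, the forelimb gene Tbx5 had 14 and 34, and of the remaining Hox genes Hoxc9 had 0 and 1 and Hoxd8 had 221 and 366.

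Foxo1 and Foxo3 have a promoter in the RefSeq table used here (assembly GRCm38.p6), and the 250 bases before the start of each are shown because Foxo1 is the member that set the genotypes apart and Foxo3 is a close relative that did so far less. Both are written 5′ to 3′ on the strand of the gene, with capitals for CCAAT boxes (CCAAT or, on the other strand, ATTGG) and Sp1 boxes (GGGCGG or CCGCCC). The windows lie at chr3:52268087-52268336 on the plus strand and chr10:42276696-42276945 on the minus strand.
Foxo1: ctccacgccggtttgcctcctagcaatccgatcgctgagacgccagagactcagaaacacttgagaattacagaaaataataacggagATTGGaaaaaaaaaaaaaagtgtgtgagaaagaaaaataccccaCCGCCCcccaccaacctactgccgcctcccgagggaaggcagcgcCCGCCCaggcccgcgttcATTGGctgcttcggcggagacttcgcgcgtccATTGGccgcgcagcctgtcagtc
Foxo3: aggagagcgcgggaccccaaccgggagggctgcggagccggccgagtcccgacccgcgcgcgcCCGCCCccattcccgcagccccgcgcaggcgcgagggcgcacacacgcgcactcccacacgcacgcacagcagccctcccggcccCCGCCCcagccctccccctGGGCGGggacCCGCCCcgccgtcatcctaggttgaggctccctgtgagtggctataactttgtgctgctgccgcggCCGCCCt
The Foxo1 window held 3 CCAAT boxes, which begin at positions -162, -55 and -23 from the start, and 2 Sp1 boxes. The Foxo3 window held no CCAAT box and 5 Sp1 boxes. Among 32536 distinct promoter windows of this length, 33.8% held a CCAAT box and 33.0% an Sp1 box. GC content was 56.0% for Foxo1 and 76.4% for Foxo3, against a median of 52.4%. Neither window held the FoxO site GTAAACA (3.17% of windows), the insulin response element core CAAAACAA (2.23%), the E-box CACGTG (6.04%), the glucocorticoid receptor core ACANNNTGT (5.82%), the cAMP response element TGACGTCA (1.56%) or the published DUX4 consensus (0.101%), each searched on both strands. These matches describe letters in a window and are not evidence of binding. The end of the Foxo3 window overlaps the start of the gene in the GENCODE annotation, which places it further upstream than RefSeq does.

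Foxo1 was the FoxO gene that set FLExDUX4 muscle apart from WT, with a 2.85-fold higher level. With TMM scaling Foxo3 was slightly higher, and the intervals of Foxo4 and Foxo6 included 0. With spike-in scaling that of Foxo3 included 0, and those of Foxo4 and Foxo6 lay below it. Foxo1 (ENSMUSG00000044167) lies on the plus strand at chr3:52268336-52353221 of GRCm38 and is protein-coding, with 3 exons in its single annotated transcript. Its protein drives Pdk4 and gluconeogenic genes during fasting. Foxo1 had 872 counts in the FLExDUX4 total and 438 in the WT total. On the CPM scale these were 67.2 (interval 62.8 to 71.8) and 23.6 (interval 21.4 to 25.9), so the genotypes did not overlap within counting error. The level was 2.85-fold higher in FLExDUX4 (interval 2.54 to 3.20), a log2 ratio of 1.51 (interval 1.34 to 1.68), and 1.23 with spike-in scaling.

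Foxo3 (ENSMUSG00000048756, minus strand, chr10:42181841-42276755) encodes the member best known for driving muscle wasting and autophagy. It had 257 counts in FLExDUX4 and 297 in WT, or 19.8 CPM (interval 17.5 to 22.4) and 16 CPM (interval 14.2 to 17.9). Its log2 ratio was 0.31 (interval 0.06 to 0.55), and 0.03 with spike-in scaling, where the interval included 0. Foxo4 (ENSMUSG00000042903, plus strand, chrX:101254528-101260873) encodes a member that is also expressed in muscle and binds the same DNA sites. It had 651 counts in FLExDUX4 and 876 in WT, or 50.2 CPM (interval 46.4 to 54.2) and 47.2 CPM (interval 44.1 to 50.4). The levels overlapped between genotypes, with a log2 ratio of 0.09 (interval -0.06 to 0.24) that was -0.19 with spike-in scaling (interval -0.34 to -0.04).

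Foxo6 (ENSMUSG00000052135, minus strand, chr4:120267079-120287349) encodes the member best known from the brain, whose protein lacks one of the Akt sites and stays mostly in the nucleus. It had 55 counts in FLExDUX4 and 106 in WT, or 4.24 CPM (interval 3.19 to 5.52) and 5.71 CPM (interval 4.68 to 6.91). Its log2 ratio of -0.42 (interval -0.93 to 0.05) included 0, and was -0.70 with spike-in scaling, where the interval (-1.20 to -0.22) excluded 0. Whether Foxo6 differed beyond counting error thus depended on the scaling.

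**Figure D1:**
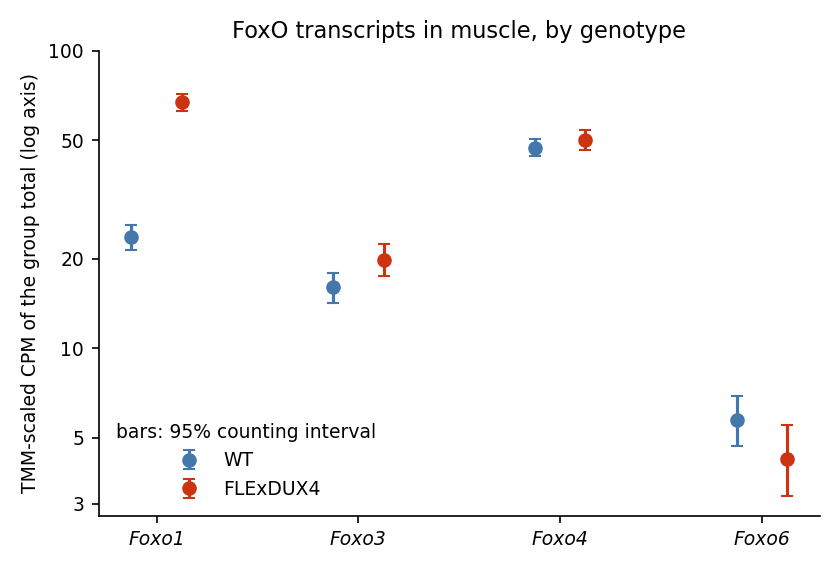
Level of each FoxO gene in the WT total (blue) and the FLExDUX4 total (red), in TMM-scaled CPM on a log axis, with bars for the 95% counting interval. Foxo1 stands at 67.2 CPM in FLExDUX4 and 23.6 CPM in WT, while the intervals of Foxo3, Foxo4 and Foxo6 overlap between the genotypes, and the direction for Foxo4 reverses with spike-in scaling.

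Among all genes, a ratio as high as that of Foxo1 was seen in many with few counts and in no other with many. Of the 4 FoxO genes, 3 had a log2 ratio above 0, against 49.9% of the 13396 genes compared. At least 1.5-fold higher, with a counting interval that excluded 0, was 1 of the 4 (Foxo1), against 9.93% of all genes. The same gene was the only 1 of the 4 at least 2-fold higher, against 5.18% of all genes. None of the 4 was at least 1.5-fold lower by this rule, against 10.2% of all genes, but Foxo6 was with spike-in scaling. With spike-in scaling, 704 genes (5.26%) were at least 1.5-fold higher and 2684 (20%) lower, in place of 1330 and 1361, 25.2% of all genes had a ratio above 0, and Foxo1 remained past 1.5-fold.

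Many of the genes past 1.5-fold had few counts. Counted from the highest ratio, Foxo1 was number 355 of 13396. Of the 2727 genes with at least 1000 counts over both totals, 0.843% were at least 1.5-fold higher, and none but Foxo1 itself reached its log2 ratio. The central 95% of those genes ran from -0.39 to 0.42, while that of all genes compared ran from -1.92 to 1.56. Foxo3 and Foxo6, with 554 and 161 counts, fell below this depth, and Foxo4, with 1527 counts, lay inside the central range of the deeper genes.

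**Figure D2:**
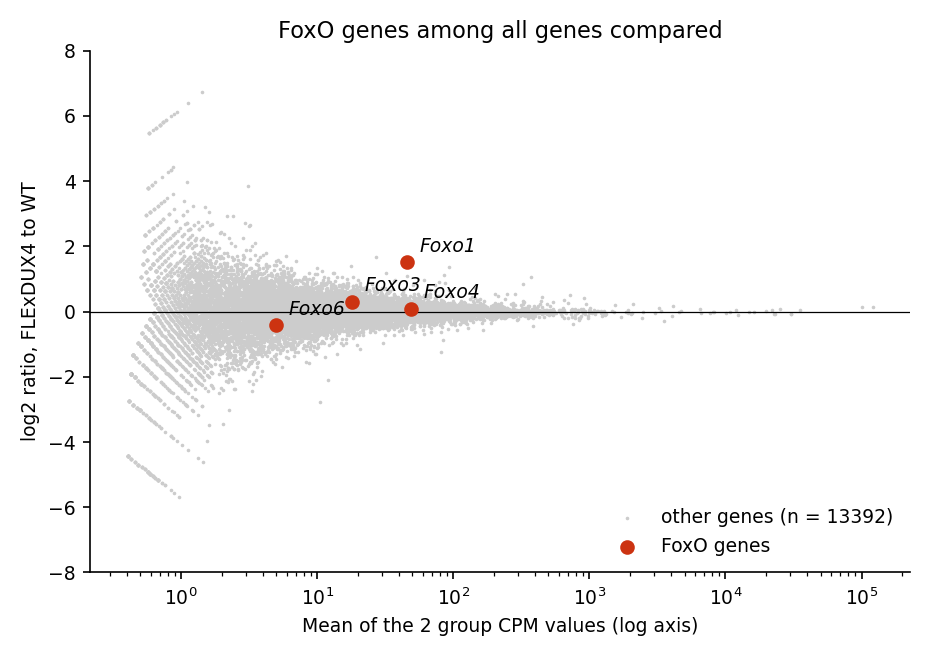
Log2 ratio of FLExDUX4 to WT against the mean of both CPM values (log axis) for each gene compared, with FoxO genes in red and the other 13392 genes in grey. The grey cloud narrows as the level rises, and Foxo1 lies above every other gene with at least 1000 counts, while Foxo3, Foxo4 and Foxo6 lie within it.

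The make-up of the FoxO counts differed between genotypes, and a share within a total needs no scaling between genotypes, though each total pools 3 mice whose depths may differ. QuantSeq gives about one read per transcript, so a share of counts is taken here as a share of transcripts. In WT, Foxo4 held 51.0% of 1717 FoxO counts (interval 48.6 to 53.4) and Foxo1 held 25.5% (interval 23.5 to 27.6). Foxo3 held 17.3% (interval 15.5 to 19.2) and Foxo6 held 6.17% (interval 5.08 to 7.42). In FLExDUX4, Foxo1 held 47.5% of 1835 FoxO counts (interval 45.2 to 49.8) and Foxo4 held 35.5% (interval 33.3 to 37.7). Foxo3 held 14% (interval 12.4 to 15.7) and Foxo6 held 3.00% (interval 2.27 to 3.88). The order by counts was thus Foxo4, Foxo1, Foxo3 and Foxo6 in WT and Foxo1, Foxo4, Foxo3 and Foxo6 in FLExDUX4, with no overlap of the counting intervals between neighbors.

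**Figure D3:**
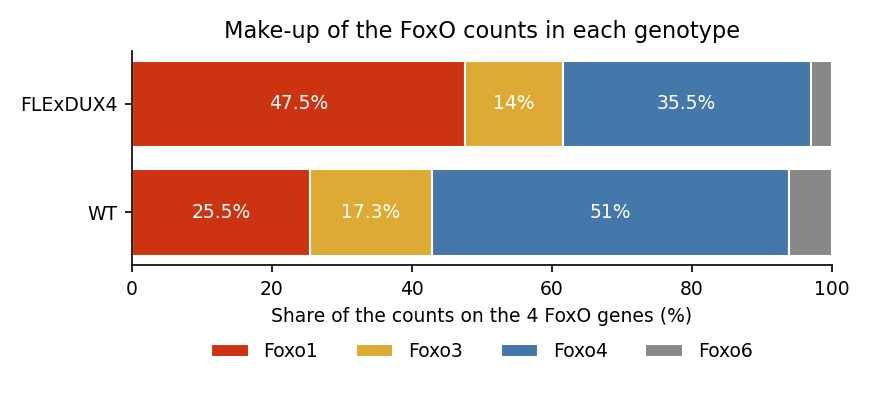
Share of each FoxO gene in the counts on all 4, in percent, for FLExDUX4 (1835 counts) and WT (1717 counts). Foxo1 takes 47.5% in FLExDUX4 and 25.5% in WT. The shares of Foxo3, Foxo4 and Foxo6 are each smaller in FLExDUX4, with overlapping counting intervals for Foxo3. A larger share of Foxo1 lowers the other shares even where their levels do not fall.

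The 3′ untranslated regions of the 4 genes differ in length, from 838 bases for Foxo6 and 1351 for Foxo4 to 4490 for Foxo3 and 6240 for Foxo1. Divided by transcript length, a scaling chosen after the data were seen, the order of the family was Foxo4, Foxo1, Foxo3 and Foxo6 in both genotypes. Per kilobase, Foxo4 held 56.4% of the family in FLExDUX4 and 67.3% in WT. Foxo1 held 27.6% in FLExDUX4 and 12.3% in WT. The exchange of first place between Foxo1 and Foxo4 was thus seen in counts and not in counts per kilobase. QuantSeq reads the 3′ end of a transcript whatever its length, so division by length does not suit these counts. The order per kilobase is therefore not a measure of transcript number. The larger share of Foxo1 in FLExDUX4 held under both.

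Ratios between pairs of FoxO genes restate the same counts without any scaling between libraries. In FLExDUX4 there were 1.34 Foxo1 counts for each Foxo4 count, against 0.5 in WT, a log2 difference of 1.42 (interval 1.20 to 1.65). There were 3.39 Foxo1 counts for each Foxo3 count, against 1.47 in WT, a difference of 1.20 (interval 0.90 to 1.5). The ratio of Foxo1 to Foxo6 was 15.9 against 4.13, a difference of 1.94 (interval 1.42 to 2.47). All 3 ratios that hold Foxo1 thus differed by more than counting error.

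Among the other members, the ratio of Foxo3 to Foxo4 was 0.395 in FLExDUX4 and 0.339 in WT, a log2 difference of 0.22 (interval -0.07 to 0.51) that did not exceed counting error. The ratio of Foxo3 to Foxo6 was 4.67 against 2.8, a difference of 0.74 (interval 0.19 to 1.30), and that of Foxo4 to Foxo6 was 11.8 against 8.26, a difference of 0.52 (interval 0.01 to 1.04). Foxo6 therefore made up less of the family in FLExDUX4 relative to each other member, by the least against Foxo4, where the lower bound was close to 0.

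Summed over the family, FoxO transcripts came to 141 CPM in FLExDUX4 and 92.5 CPM in WT, a log2 ratio of 0.61 (interval 0.52 to 0.71), and 0.34 with spike-in scaling. Foxo1 made up 43.6 CPM of the difference of 48.9 CPM. Without Foxo1, the other 3 genes summed to 74.2 CPM in FLExDUX4 and 68.9 CPM in WT, a log2 ratio of 0.11 (interval -0.02 to 0.23) that was -0.17 with spike-in scaling. The sum of Foxo3, Foxo4 and Foxo6 was thus within counting error of no difference under TMM.

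The annotation holds a pair of genes inside Foxo1. Gm20402, antisense to Foxo1, had 0 counts in both totals, and Gm38034, on the same strand at chr3:52282241-52284309, had 5 counts in FLExDUX4 and 20 in WT. No annotated gene overlapped Foxo3, Foxo4 or Foxo6. Foxo6os, a noncoding gene on the opposite strand near Foxo6, had 42 counts in FLExDUX4 and 114 in WT, a log2 ratio of -0.91 (interval -1.47 to -0.40).

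Over the levels in both genotypes, the gene closest to Foxo1 was Zbtb16, by Euclidean distance on log2 CPM (distance 0.337). Zbtb16, a zinc finger transcription factor known to respond to glucocorticoids, had 807 counts in FLExDUX4 and 546 in WT, a log2 ratio of 1.08 (interval 0.92 to 1.24). Next came Ctgf, a secreted matricellular protein, at a distance of 0.447, with 645 and 470 counts and a log2 ratio of 0.97 (interval 0.80 to 1.15). Fkbp5, a cochaperone of the glucocorticoid receptor, followed at 0.489, with 625 and 466 counts and a log2 ratio of 0.94 (interval 0.76 to 1.12). With 1 value per genotype, this likeness rests on 2 points a gene.

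Upstream of FoxO, the ligands, receptors and adaptors of the insulin and IGF-1 signal had 3 of 6 ratios above 0 (all genes, 49.9%), or 0 of 6 with spike-in scaling (all genes, 25.2%), and a median of -0.04. None was at least 1.5-fold higher (all genes, 9.93%) and 1 was at least 1.5-fold lower (all genes, 10.2%), and 2 were lower with spike-in scaling (Irs1 and Irs2; all genes, 20%). The lower gene was Irs1, an adaptor that passes the signal from the receptors to PI3K, with 607 counts in FLExDUX4 and 1396 in WT and a log2 ratio of -0.68 (interval -0.82 to -0.55). The second adaptor, Irs2, which FoxO proteins are known to induce in other tissues, had 347 and 616 counts and a ratio of -0.31 (interval -0.51 to -0.12). The insulin receptor Insr had 501 and 609 counts, a ratio of 0.24 (interval 0.06 to 0.41), and Igf1r had 517 and 630 counts, a ratio of 0.23 (interval 0.06 to 0.40). Both receptor ratios were smaller than the spike-in shift and so changed sign with that scaling. The ligands Igf1 and Igf2 had ratios of 0.03 (interval -0.15 to 0.20) and -0.10 (interval -0.35 to 0.14), both within counting error of 0.

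In the PI3K, Akt and SGK arm, which phosphorylates FoxO proteins or reverses that step, 12 of 18 genes had a ratio above 0 (all genes, 49.9%), or 4 with spike-in scaling (all genes, 25.2%), and the median was 0.06. In this arm 1 gene was at least 1.5-fold higher and 1 at least 1.5-fold lower, each 5.56% of the list against 9.93% and 10.2% of all genes. Phlpp1 and Phlpp2 encode phosphatases that switch Akt off, and Phlpp1 had 83 counts in FLExDUX4 and 197 in WT, a log2 ratio of -0.73 (interval -1.12 to -0.35). Phlpp2 had 52 and 46 counts, a ratio of 0.69 (interval 0.09 to 1.30), and was below 1.5-fold with spike-in scaling (0.42). Akt1 had 603 and 725 counts, a ratio of 0.25 (interval 0.09 to 0.41), and Akt2, the main Akt of insulin action in muscle, had 503 and 743 counts, a ratio of -0.05 (interval -0.21 to 0.12). The mTORC2 subunit gene Rictor, needed for full Akt activity, had a ratio of 0.42 (interval 0.15 to 0.69), and the phosphatase subunit gene Ppp2ca had 0.33 (interval 0.21 to 0.44). The ratios of Inpp5d (0.74, from 27 and 23 counts) and Pik3cb (-0.42, from 43 and 83 counts) had intervals that included 0. With spike-in scaling Pik3cb was at least 1.5-fold lower, as was Phlpp1 (2 of 18, against 20% of all genes).

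Of the 14-3-3 proteins and the exportin Xpo1, which take phosphorylated FoxO proteins out of the nucleus, 7 of 8 genes had enough counts, and Sfn, with 3 counts in each total, did not. Of these 7, 5 had a ratio above 0 (all genes, 49.9%), or 2 with spike-in scaling (all genes, 25.2%), and the median was 0.09. None was at least 1.5-fold lower (all genes, 10.2%), and 1 was at least 1.5-fold higher (all genes, 9.93%). That gene was Ywhah, which encodes 14-3-3 eta, with 195 counts in FLExDUX4 and 154 in WT and a log2 ratio of 0.86 (interval 0.54 to 1.17), which spike-in scaling brought to 0.58, just below 1.5-fold. Ywhaq had a ratio of 0.33 (interval 0.04 to 0.62). The abundant Ywhae had 4010 and 5772 counts and a ratio of -0.01 (interval -0.07 to 0.05), and Ywhab, Ywhaz and Xpo1 had ratios of -0.04, 0.10 and 0.09, each with an interval that included 0.

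Among 23 enzymes that modify FoxO proteins by acetylation, deacetylation, phosphorylation, methylation or ubiquitin, 14 had a ratio above 0 (all genes, 49.9%), or 3 with spike-in scaling (all genes, 25.2%). The median was 0.06, none was at least 1.5-fold higher (all genes, 9.93%) and 1 was at least 1.5-fold lower (all genes, 10.2%). The lower gene was Skp2, a ubiquitin ligase subunit that targets FoxO1, with 12 counts in FLExDUX4 and 37 in WT and a log2 ratio of -1.07 (interval -2.18 to -0.14). It has fewer counts than the rule for named genes asks and was named after its value was seen. The deacetylase gene Sirt1 had 207 and 218 counts, a ratio of 0.44 (interval 0.16 to 0.72), and Sirt3 had a ratio of -0.28 (interval -0.55 to -0.02). Prkaa1, a catalytic subunit of AMPK, had 135 and 135 counts, a ratio of 0.52 (interval 0.16 to 0.87), and the acetyltransferase gene Ep300 had 0.30 (interval 0.16 to 0.44). Kat2b, a further acetyltransferase gene, and Rfwd2, a ubiquitin ligase gene, both had a ratio of 0.24.

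Of 11 cofactors that FoxO proteins bind or work with, 10 had enough counts, and 5 had a ratio above 0 (all genes, 49.9%), or 1 with spike-in scaling (all genes, 25.2%). The median was -0.02, and none was past 1.5-fold in either direction (all genes, 9.93% higher and 10.2% lower). Ppargc1a, the PGC-1α coactivator, had 1101 counts in FLExDUX4 and 1194 in WT, a log2 ratio of 0.40 (interval 0.28 to 0.52). Bcl6, a repressor that is also a FoxO target, had 620 and 1215 counts, a ratio of -0.45 (interval -0.60 to -0.31), and was at least 1.5-fold lower with spike-in scaling (all genes, 20%). Cited2 had a ratio of -0.27 (interval -0.42 to -0.13) and Smad3, a TGF-beta effector, -0.18 (interval -0.29 to -0.07). The ratios of Smad4 (0.07) and Notch1 (-0.06) were within counting error of 0.

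**Figure D4:**
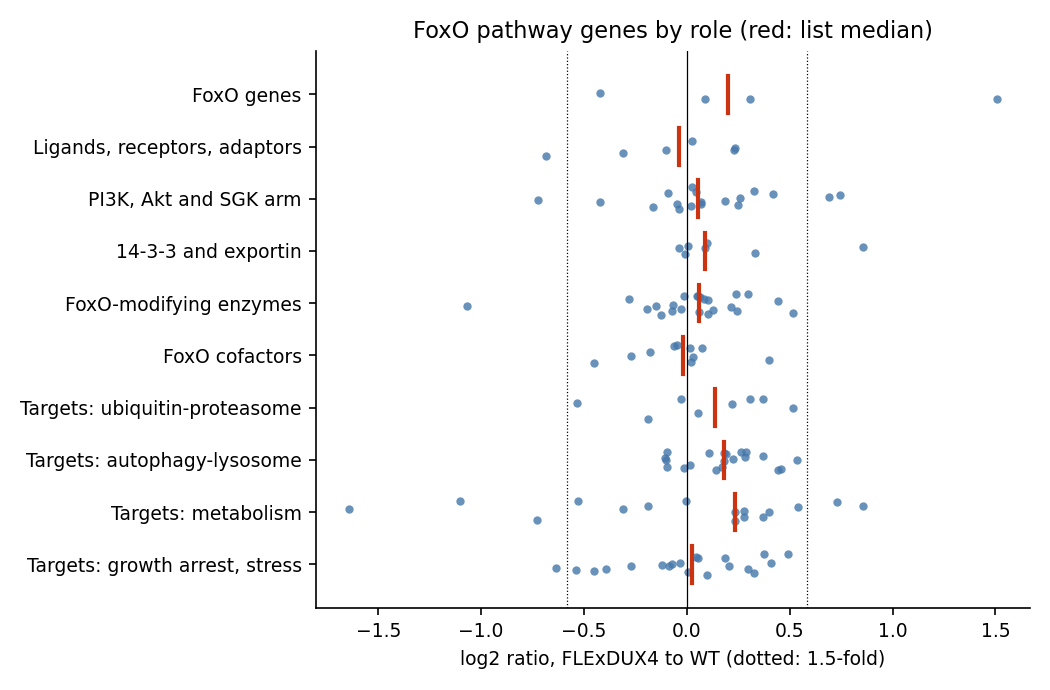
Log2 ratio of FLExDUX4 to WT for each gene compared in the FoxO family and in lists of pathway genes by role, with 1 point a gene, a red bar at the list median and dotted lines at 1.5-fold. Foxo1, at 1.51, lies farther from 0 than any gene of the other lists but Depdc7 (-1.64), and list medians outside the family run from -0.04 to 0.24, so the positive ones change sign with spike-in scaling.

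Downstream, 66 genes listed as FoxO targets were read as a group and then by function. Of these, 64 had enough counts, and 40 of them (62.5%) had a ratio above 0, against 49.9% of all genes, or 21 with spike-in scaling, against 25.2%. The median log2 ratio was 0.16, and -0.12 with spike-in scaling, and the ratios ran from -1.64 to 0.85. At least 1.5-fold higher was 1 gene (1.56%), against 9.93% of all genes, and at least 1.5-fold lower were 4 genes (6.25%), against 10.2%. With spike-in scaling no target was higher and 10 were lower, against 5.26% and 20% of all genes. Among the 7375 genes with at least 200 counts over both totals, 3.63% were at least 1.5-fold higher and 3.31% lower. No listed target reached the ratio of Foxo1.

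The ubiquitin and proteasome targets are the genes by which FoxO proteins are best known in wasting muscle. Of 8 such genes, 5 had a ratio above 0 (all genes, 49.9%), or 3 with spike-in scaling (all genes, 25.2%), and the median was 0.14. None was past 1.5-fold in either direction (all genes, 9.93% higher and 10.2% lower), while with spike-in scaling Psmc4 was at least 1.5-fold lower (all genes, 20%). Fbxo32, which encodes the ubiquitin ligase atrogin-1, had 4826 counts in FLExDUX4 and 7053 in WT, a log2 ratio of -0.03 (interval -0.08 to 0.02). Trim63, which encodes MuRF1, had 2294 and 2536 counts, a ratio of 0.37 (interval 0.29 to 0.45). With spike-in scaling Fbxo32 had a ratio of -0.31 and Trim63 of 0.10, so Fbxo32 was within counting error of 0 with TMM and below 0 with spike-ins. Fbxo21 had 150 and 150 counts, a ratio of 0.52 (interval 0.18 to 0.85), and Fbxo30, the ligase MUSA1, 0.31 (interval -0.02 to 0.63). The proteasome subunit genes Psmc4 and Psmd11 had ratios of -0.53 (interval -0.71 to -0.36) and of 0.22 (interval 0.11 to 0.32).

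Of 20 autophagy and lysosome targets, 15 had a ratio above 0 (all genes, 49.9%), or 6 with spike-in scaling (all genes, 25.2%), the median was 0.18 and none was past 1.5-fold under either scaling (all genes with TMM, 9.93% higher and 10.2% lower). Gabarapl1, which encodes a protein of the autophagosome membrane, had 582 counts in FLExDUX4 and 612 in WT, a log2 ratio of 0.44 (interval 0.28 to 0.61). Atg5, needed to extend that membrane, had 294 and 290 counts, a ratio of 0.54 (interval 0.30 to 0.78). Map1lc3b, the LC3B gene, had a ratio of 0.14 (interval 0.04 to 0.24) and Bnip3, a mitophagy receptor gene, 0.26 (interval 0.18 to 0.34), and both changed sign with spike-in scaling. Atp6v0d1, a subunit of the lysosomal proton pump, had 0.46 (interval 0.20 to 0.71), Ulk2 0.29 (interval 0.16 to 0.41) and Gabarapl2 0.28 (interval 0.10 to 0.47). The ratio of Pik3c3 was 0.37 (interval -0.03 to 0.77).

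Of 18 metabolic targets, 16 had enough counts, 9 had a ratio above 0 (all genes, 49.9%), or 7 with spike-in scaling (all genes, 25.2%), and the median was 0.24. G6pc and Fgf21, a liver enzyme gene and a hormone gene, had 0 counts in both totals. The single target at least 1.5-fold higher (all genes, 9.93%) was Pdk4, whose product turns muscle from glucose to fat, with 5470 counts in FLExDUX4 and 4329 in WT. Its log2 ratio was 0.85 (interval 0.80 to 0.91), and 0.58 with spike-in scaling, just below 1.5-fold. Eif4ebp1, a brake on translation, had 640 and 629 counts, a ratio of 0.54 (interval 0.38 to 0.70).

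At least 1.5-fold lower were 3 metabolic targets of 16 (all genes, 10.2%), and 5 with spike-in scaling (all genes, 20%), which added Pck1 and Irs2. Sesn3, a sestrin gene induced by FoxO1 and FoxO3, had 130 counts in FLExDUX4 and 309 in WT, a log2 ratio of -0.73 (interval -1.04 to -0.43). Angptl4, which encodes an inhibitor of lipoprotein lipase, had 13 and 41 counts, a ratio of -1.10 (interval -2.17 to -0.21). Depdc7 had 7 and 33 counts, a ratio of -1.64 (interval -3.14 to -0.52), and was named after its value was seen. The gluconeogenic gene Pck1 had 69 and 143 counts, a ratio of -0.53 (interval -0.97 to -0.11), and Hmox1, the heme oxygenase gene, had 36 and 31 counts, a ratio of 0.73 whose interval included 0. Members of this list thus lay on both sides of 0 by more than counting error.

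Of 20 targets in growth arrest and stress, 11 had a ratio above 0 (all genes, 49.9%), or 5 with spike-in scaling (all genes, 25.2%), and the median was 0.02. None was at least 1.5-fold higher (all genes, 9.93%) and 1 was at least 1.5-fold lower (all genes, 10.2%), or 4 with spike-in scaling (all genes, 20%), which added Ddit4, Bcl6 and Bcl2l11. The lower gene was Klf2, a transcription factor gene of endothelium and leukocytes, with 534 counts in FLExDUX4 and 1188 in WT and a log2 ratio of -0.64 (interval -0.79 to -0.49). Ddit4, the mTORC1 inhibitor REDD1, had 521 and 1083 counts, a ratio of -0.54 (interval -0.69 to -0.39). The cell cycle inhibitor genes went apart, with Cdkn1b at 0.49 (interval 0.30 to 0.68) and Cdkn1a at -0.07 (interval -0.23 to 0.09). Mxi1, a MYC antagonist, had 0.41 (interval 0.26 to 0.56), and the pro-apoptotic Bcl2l11 had -0.39 (interval -0.69 to -0.10).

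**Figure D5:**
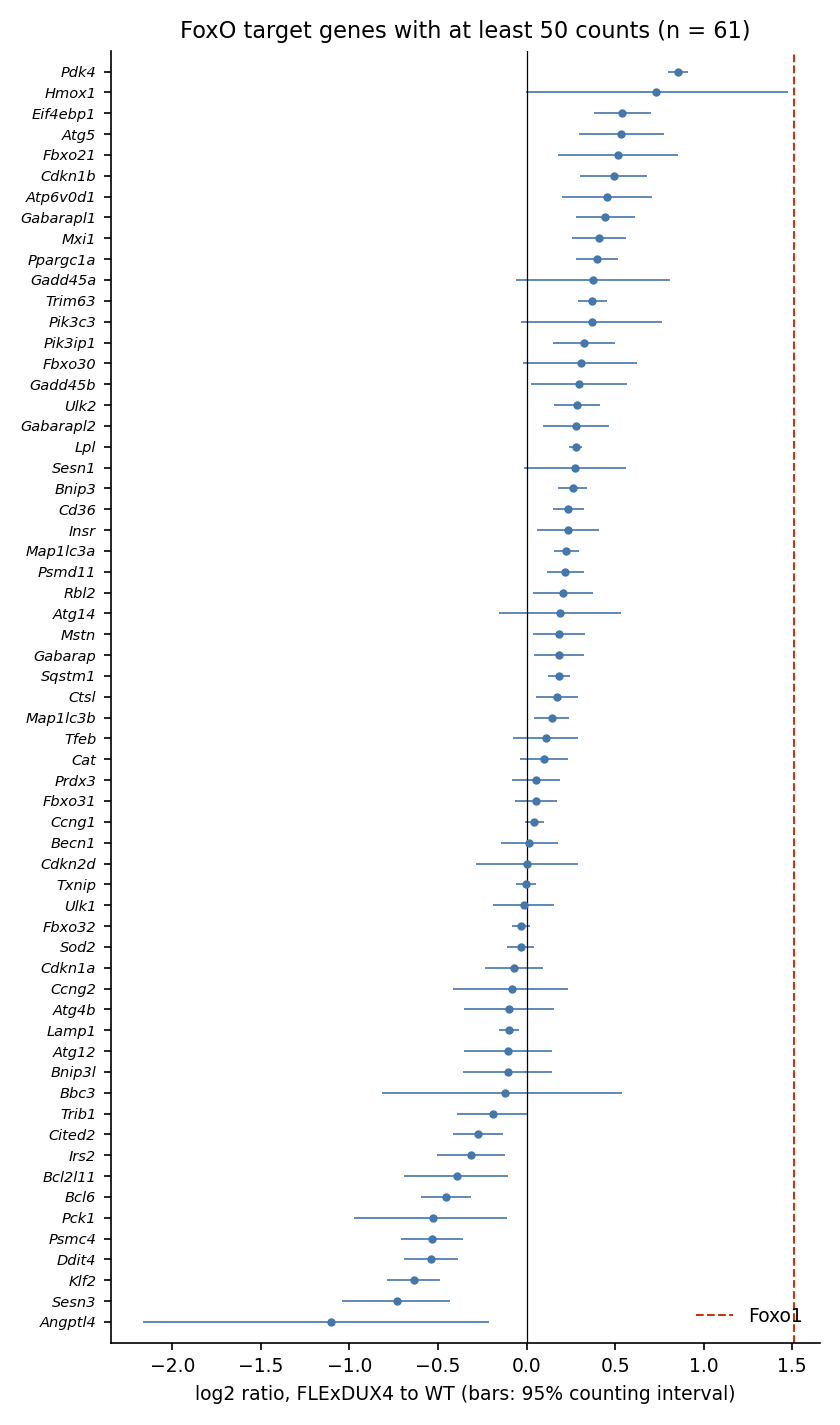
Log2 ratio of FLExDUX4 to WT for 61 of the listed FoxO target genes with at least 50 counts over both totals, sorted by ratio, with bars for the 95% counting interval and a dashed red line at the ratio of Foxo1. Targets lie on both sides of 0, from -1.10 for Angptl4 to 0.85 for Pdk4, all left of the Foxo1 line at 1.51, and positive ratios smaller than the spike-in shift change sign with that scaling.

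Foxo1 is expressed in fat and endothelium as well as in muscle fibers, and in whole muscle fewer cells of a type and less RNA per cell cannot be told apart. Adipocyte markers had 7 of 8 above 0 (all genes, 49.9%), 4 at least 1.5-fold higher (Adipoq, Cfd, Retn and Pparg; all genes, 9.93%), a median log2 ratio of 0.55 and a sum of 394.6 CPM in FLExDUX4 and 309.3 CPM in WT. With spike-in scaling 5 of 8 were above 0 (all genes, 25.2%). By that scaling 2 were at least 1.5-fold higher (Cfd and Pparg), as Adipoq and Retn came to 0.43 and 0.41, and 1 was lower (Lep), against 5.26% and 20% of all genes. Endothelial markers had 4 of 10 above 0 (all genes, 49.9%), or 3 with spike-in scaling (all genes, 25.2%), a median of -0.04 and a sum of 246 and 255 CPM. Vwf and Esam were at least 1.5-fold higher (all genes, 9.93%), and Tek and Cldn5 were at least 1.5-fold lower (all genes, 10.2%). With spike-in scaling no endothelial marker was at least 1.5-fold higher and 4 were lower (Tek, Cldn5, Kdr and Emcn), against 5.26% and 20% of all genes. Fibro-adipogenic markers had 6 of 7 above 0 (all genes, 49.9%), or 3 with spike-in scaling (all genes, 25.2%), none past 1.5-fold under either scaling, a median of 0.05 and a sum of 1340 and 1211 CPM. Macrophage and leukocyte markers had 3 of 8 above 0 (all genes, 49.9%), or 1 with spike-in scaling (all genes, 25.2%), a median of -0.32 and a sum of 80.8 and 85.0 CPM. C1qb and Cd14 were at least 1.5-fold lower (all genes, 10.2%), and 4 were lower with spike-in scaling (all genes, 20%). The satellite cell list had 1 of 5 above 0 under both scalings (all genes, 49.9%, and 25.2% with spike-ins), a median of -0.02 and a sum of 45.5 and 51.4 CPM. It includes Chrna1, which encodes an acetylcholine receptor subunit made by muscle fibers and is not specific to satellite cells. Pax7 was at least 1.5-fold lower (all genes, 10.2%), and Chrna1 as well with spike-in scaling (all genes, 20%). Fiber markers had 3 of 10 above 0 (all genes, 49.9%), or 0 with spike-in scaling (all genes, 25.2%), none past 1.5-fold under either scaling, and a median of -0.02. No marker of these lists was at 0 in either total, and the part of any of these cell types in the Foxo1 ratio was not tested.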

How the data were processed

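Total RNA was sequenced with the QuantSeq 3′ FWD kit. Reads were trimmed with cutadapt 1.16 and aligned with STAR 2.5.3a to GRCm38 joined to spike-in sequences, and the submitters' processing notes list featureCounts 1.6.2. The deposited table gives, for 52649 features, raw counts that the authors summed over each genotype without normalization, and only these were used. A further 6 columns of values, headed as replicates, carry names that match no sample label and entered no step. The authors' mean and 5 columns of their comparison (fold change, error, statistic and p-values) were not used.

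Spike-ins (99 features, 220016 and 259913 counts) were left out of library totals. TMM factors came from edgeR 4.0.16 under R 4.3.3 and rested on the 13396 genes that filterByExpr kept. Log2 ratios used a pseudocount of 0.5 and Clopper-Pearson 95% intervals (scipy 1.17.1, Python 3.11.15), which cover counting error only. A planned test across replicates (edgeR) needed values of single mice and was not run. A gene was counted as higher or lower at 1.5-fold with an interval that excluded 0. The 4 genes and the gene lists were chosen with earlier results of these data known. Named from each list were up to 6 genes with the largest ratio in size and at least 50 counts, commonly assayed FoxO pathway genes, the 3 genes nearest Foxo1, overlapping genes, and the 3 other forkhead genes with most counts. Other names were chosen after their values were seen. Rfwd2 is the table's symbol for Cop1. Gene positions are from GENCODE M21, whose starts equal those deposited. One gene of the target lists is counted in the list totals but not reported here by name. Scripts were tested on simulated data. Alternatives were other scalings, filters and pseudocounts, and other denominators of the shares.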

Additional observations from a re-analysis of the deposited data

How the results depend on the processing

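No paired analysis was possible because the columns headed as replicates carry no sample label. These columns were left out by choice, so a comparison over single mice and leaving out each replicate in turn were not run. Of 74 alternatives tried, 60 left a ratio within its counting interval, a count within 1.5 times, or the median of the targets within 0.1. Filters and scalings other than spike-ins shifted every log2 ratio by between -0.03 and 0.001, so they had little room to move a ratio. Scaling to spike-ins, which shifts every log2 ratio by -0.28, gave 1.23 for Foxo1, 0.032 for Foxo3, -0.19 for Foxo4 and 0.34 for the summed FoxO counts. It gave 704 genes at least 1.5-fold higher and 2684 lower, in place of 1330 and 1361, with 0 FoxO targets higher and 10 lower, in place of 1 and 4. The median of the targets was 0.16 and reversed to -0.12. Whether the spike-in shift came from the amount added or from the amount of mRNA was not tested. For Foxo6, spike-in scaling gave -0.70 with an interval below 0, which is counted among the 60 because -0.70 lies within the TMM interval. With at least 10 counts in each total, a filter that tests fewer genes, 1013 genes were higher and 870 lower. Over Foxo1 and Foxo3 alone, Foxo1 held 77.2% in FLExDUX4 and 59.6% in WT. Per kilobase of transcript, Foxo1 held 27.6% and 12.3% of the family. That scaling was chosen after seeing the data and does not suit counts read from transcript ends. Other scalings, filters and pseudocounts left the log2 ratio of Foxo1 between 1.48 and 1.51. The count of Foxo6 (161 in all) limits what can be said of it, and since no values per mouse were used, no ratio here has a replicate check.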

Other observations

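Among other forkhead genes, 40 have a row in the table, 20 of them with 0 counts in both totals, and 14 had enough counts to be compared. Of these 14, 7 had a log2 ratio above 0 (all genes, 49.9%), or 3 with spike-in scaling (all genes, 25.2%), and the median was 0.01. The highest ratio was 0.88 for Foxc2, from 13 and 10 counts, with an interval of -0.41 to 2.24. None was at least 1.5-fold higher (all genes, 9.93%) and 2 were at least 1.5-fold lower (all genes, 10.2%), Foxd3 with 18 counts in FLExDUX4 and 58 in WT and Foxs1 with 3 and 20, joined by Foxq1 with spike-in scaling (all genes, 20%). The 3 with most counts were Foxn3, a repressor gene with 3358 and 5072 counts and a ratio of -0.08, Foxj2 with 458 and 580 counts and a ratio of 0.18, and Foxp1 with 441 and 581 counts and a ratio of 0.12. The ratios of Foxj2 and Foxp1 change sign with spike-in scaling.

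Fcor, which encodes a small protein known as a corepressor of FoxO1 in fat, had 11 counts in FLExDUX4 and 0 in WT. It was named after its values were seen and had too few counts to pass the filter.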
